A study of Mus musculus with 10 samples.

Results

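The 10 genes described here encode proteins of the NF-κB pathway, measured in kidneys of old mice with and without an active form of RagC. They were chosen by role: the transcription factor subunits Nfkb1, Nfkb2, Rela and Relb, the IκB proteins Nfkbia and Nfkbiz, the kinase Ikbkb, the ubiquitin ligases Birc2 and Birc3, and the receptor Tnfrsf1a. All 10 were among the 13299 genes of the deposited table, and all 10 passed the filter on low values, together with 13236 genes in all. Whole kidneys of 5 mice heterozygous for a knock-in S74N change in Rragc (Rragc S74N/+) were compared with whole kidneys of 5 wild-type mice (Rragc +/+), all aged 1.5 years and of a C57BL/6 background. RagC is a small GTPase that carries the signal of amino acid sufficiency to the kinase complex mTORC1. The knock-in allele is present in every tissue, blood cells included, and the labels name no treatment for either group. From each kidney, 300 ng of RNA entered a library primed at the poly(A) tail, which yields reads from the 3′ end of each transcript. A count therefore needs no division by transcript length, although the kit can capture some 3′ ends better than others. The labels gave no replicate number and no sex, so replicates were numbered in order of deposit, and 4 Y-linked genes of the table were detected in all 10 libraries at 26.9 normalized counts or more.

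NF-κB is a family of dimeric transcription factors that switch on genes of inflammation, cell survival and immune cell recruitment. In resting cells IκB proteins hold the dimers in the cytoplasm, and signals from receptors such as TNF receptor 1 activate the IκB kinases, which mark IκB for destruction and free the RelA dimers. In a slower, non-canonical branch, the precursor made from Nfkb2 is cut to a subunit that pairs with RelB, and the ubiquitin ligases cIAP1 and cIAP2 hold that branch back while taking part in signaling from TNF receptor 1. In the kidney, tubular cells, endothelium and leukocytes can all carry out this response.

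Several of these genes are known as targets of the factors they encode or control. Promoter windows of 250 bases before to 50 bases after the transcription start were taken from RefSeq on the build GRCm38.p6, and 6 of the 10 genes had a window, 9 windows in all. The windows of Birc3 and Birc2 are shown because these genes are neighbouring paralogs whose values differed most and next most between genotypes by p, and the windows of Nfkbia and Nfkb2 because they held matches to κB motifs. Each is written 5′ to 3′ on the strand of its gene, with motif matches in capitals.
Birc3, chr9:7873121-7873420, minus strand: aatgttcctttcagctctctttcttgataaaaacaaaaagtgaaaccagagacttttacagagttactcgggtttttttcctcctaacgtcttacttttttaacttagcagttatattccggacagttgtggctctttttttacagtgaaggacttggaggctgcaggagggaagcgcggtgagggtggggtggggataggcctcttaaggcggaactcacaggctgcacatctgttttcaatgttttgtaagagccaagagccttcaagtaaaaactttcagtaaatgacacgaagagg
Birc2, chr9:7837008-7837307, minus strand: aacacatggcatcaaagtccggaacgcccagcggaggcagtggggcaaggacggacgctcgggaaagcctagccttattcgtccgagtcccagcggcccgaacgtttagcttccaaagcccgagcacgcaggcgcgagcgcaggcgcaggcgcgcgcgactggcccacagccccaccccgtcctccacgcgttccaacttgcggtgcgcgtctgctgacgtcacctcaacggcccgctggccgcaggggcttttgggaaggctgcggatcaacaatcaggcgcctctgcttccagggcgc
Nfkbia, chr12:55492598-55492897, minus strand: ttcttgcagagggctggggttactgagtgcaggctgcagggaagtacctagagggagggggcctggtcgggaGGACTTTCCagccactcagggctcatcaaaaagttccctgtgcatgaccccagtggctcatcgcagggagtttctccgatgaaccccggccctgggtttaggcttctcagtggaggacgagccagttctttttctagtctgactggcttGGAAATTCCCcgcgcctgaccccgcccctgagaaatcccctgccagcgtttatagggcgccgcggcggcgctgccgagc
Nfkb2, chr19:46305445-46305744, plus strand: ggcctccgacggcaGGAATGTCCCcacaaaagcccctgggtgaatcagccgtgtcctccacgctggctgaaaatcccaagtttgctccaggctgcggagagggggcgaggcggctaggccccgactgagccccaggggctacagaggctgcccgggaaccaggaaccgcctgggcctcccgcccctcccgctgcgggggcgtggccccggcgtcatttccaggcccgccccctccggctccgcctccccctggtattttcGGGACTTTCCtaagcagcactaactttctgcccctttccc
The motifs were GGACTTTCC, the core of the κB site of immunoglobulin and viral enhancers, and the looser κB consensus, each searched on both strands, and a match to the core can overlap a match to the consensus. The search was made after the windows had been seen. In the Nfkbia window the core GGACTTTCC began 178 bases before the start, and GGAAATTCCC, a consensus match on the opposite strand, began 29 bases before it. In the printed Nfkb2 window GGAATGTCCC, on the opposite strand, began 236 bases before the start and GGGACTTTCC, which matched both, began at base 11 after it. All 3 windows of Nfkb2 held at least 1 match, although the printed window overlaps another and the same GGGACTTTCC site lies in both. The windows of Birc3, Birc2, Rela and Tnfrsf1a held none, which says only that these letters are not in these windows. Among 32851 windows of the same length, GGACTTTCC was present in 0.344% and the κB consensus in 8.46%.

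Of the 10 genes, Birc3 alone was called at an adjusted p under 0.05 (limma on log2 of the normalized count plus 1, adjusted over all 13236 genes), and it was higher in Rragc S74N/+ kidneys. None was called lower. Over all genes tested, 3.45% were called higher, 2.58% lower and 6.03% in either direction, so 1 of 10 is a share that a single gene sets. At an unadjusted p under 0.05, 5 of the 10 stood higher (Nfkb1, Relb, Nfkbiz, Birc2 and Birc3) and none lower, where 12.6% of all genes tested stood higher at that level and 25.4% stood either way. The log2 fold change was above 0 in 7 of the 10 genes, against 48.7% of all genes tested. Its median was 0.36 over the 10 genes and -0.01 over all genes tested. The 10 genes were chosen with earlier results of these data known, so these shares and medians are not independent evidence.

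**Figure D1:**
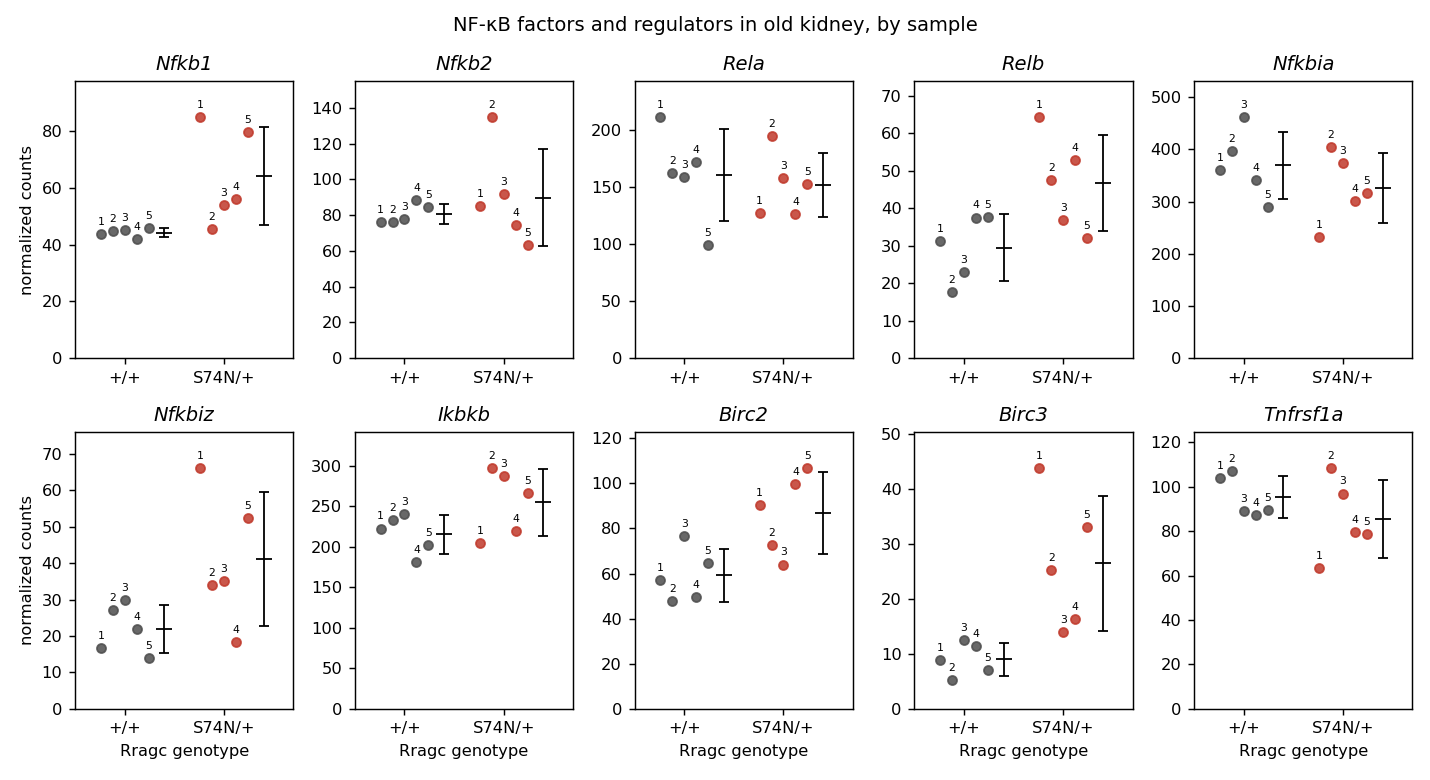
Normalized counts (vertical axes, from 0) of the 10 genes in each of the 5 Rragc +/+ (grey) and 5 Rragc S74N/+ (red) kidneys, with replicate numbers above the points and the mean ± SD of each group at its right. In the Birc3 panel all 5 Rragc S74N/+ points lie above the highest Rragc +/+ point, while in the other 9 panels the groups overlap.

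Birc3 encodes cIAP2, a ubiquitin ligase that attaches chains to signaling proteins at TNF receptors, and its gene is itself a well known NF-κB target. It stood at 8.95, 5.20, 12.5, 11.4 and 6.96 normalized counts in Rragc +/+ replicates 1 to 5 and at 43.8, 25.2, 14.0, 16.3 and 33.0 in Rragc S74N/+ replicates 1 to 5. The groups did not overlap, as for 4.15% of all genes tested in this direction and 8.16% in either, but the lowest Rragc S74N/+ kidney, replicate 3, was close to the highest Rragc +/+ kidney, also a replicate 3. The mean rose from 8.99 ± 3.01 to 26.5 ± 12.3 (SD, n = 5 each), and the fold change on the log2 scale was 1.40 ± 0.36 (SE), with a 95% interval from 0.63 to 2.16 (limma, adjusted p = 0.0329). These are few reads: in the 8 kidneys whose whole reads were recovered, Birc3 had 8, 5, 13 and 13 reads in Rragc +/+ replicates 1 to 4 and 47, 26, 16 and 34 reads in Rragc S74N/+ replicates 1, 2, 4 and 5. Birc3 belongs to a panel of myeloid attractant genes that the study chose on these same samples, so its rise here is not independent evidence of its direction. The paper also measured genes of this panel by qPCR and blocked the product of another, Vcam1, with an antibody, which was not examined here.

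The Birc3 call depended on single libraries. It was lost in 7 of the 10 limma fits that each left out 1 kidney, with an adjusted p of 0.0675 without Rragc +/+ replicate 1, 0.0927 without replicate 2, 0.0529 without replicate 4 and 0.0565 without replicate 5. Without Rragc S74N/+ replicates 1, 2 or 5 in turn the adjusted p was 0.0656, 0.0598 and 0.0858. The log2 fold change itself stayed between 1.19 and 1.59 over these 10 fits. Kidneys whose titles carry the lower numbers, 3 of each genotype, gave a log2 difference of 1.47, and the other kidneys, 2 of each genotype, gave 1.29. The lack of overlap in either set follows from that over all 10 kidneys. The labels do not say what the title number stands for.

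Whole kidney RNA mixes tubular, vascular, stromal and immune cells, and in such bulk samples fewer cells of a type and less RNA per cell cannot be told apart. Of 8 pan-leukocyte markers, all in the table, 3 rose (Rac2, Ptprc and Cd52) and none fell, and their summed level was 338 to 457 normalized counts in Rragc +/+ and 551 to 807 in Rragc S74N/+ kidneys. The Rragc S74N/+ kidneys with the least Birc3, replicates 3 and 4, also had the lowest sums, at 551 and 594, against 758, 807 and 794 in replicates 1, 2 and 5. This order was not particular to leukocytes. Replicates 3 and 4 also had the lowest sums of fibroblast markers in their group, at 1351 and 1314, against 2202, 1702 and 1886 in replicates 1, 2 and 5. Their sums of macrophage markers, 1040 and 1006, were the lowest as well, and in none of the other marker lists were both kidneys lowest. Of the pan-leukocyte markers only Cd53 was at 0 in a library, and its log2 fold change was -0.01 (limma, adjusted p = 0.996). Among 10 macrophage markers, 9 were in the table and 3 rose (Cx3cr1, Lyz2 and C1qb), with sums of 644 to 859 against 1006 to 1370. The macrophage markers C1qc and Cd68 had log2 fold changes of -0.48 and -0.34 and were not called (limma, adjusted p = 0.309 and 0.598). Among 8 neutrophil markers 3 were in the table and S100a9 rose, with sums of 21.1 to 38.0 against 43.0 to 83.0. Leaving out 1 kidney at a time, the calls of Rac2, Ptprc, Cx3cr1, Lyz2 and C1qb held in all 10 fits. That of Cd52 was lost without Rragc +/+ replicates 1, 2 or 4 or Rragc S74N/+ replicates 2 or 5 (adjusted p up to 0.0909), and that of S100a9 held only without Rragc +/+ replicate 1 or Rragc S74N/+ replicates 1 or 3 (adjusted p otherwise up to 0.107). None of the 3 T cell markers in the table, of 8 listed, was called by limma, and all 3 stood higher at an unadjusted p under 0.05, where their sums were 8.95 to 30.2 against 30.6 to 65.3 and Cd3e was at 0 in a Rragc +/+ kidney. The part of these cells in the Birc3 difference, and in the values of the other genes below, was not tested.

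Birc2 encodes cIAP1, the closest relative of cIAP2, and lies beside Birc3 on chromosome 9. It stood at 57.1, 47.9, 76.8, 49.8 and 64.7 normalized counts in Rragc +/+ replicates 1 to 5 and at 90.5, 72.7, 64.0, 99.8 and 107 in Rragc S74N/+ replicates 1 to 5. Rragc S74N/+ replicates 1, 4 and 5 lay above every Rragc +/+ kidney, and the other 2 lay within the wild-type range. Birc2 had a log2 fold change of 0.54 ± 0.19 (SE), 95% interval 0.14 to 0.94, which did not pass adjustment (limma, adjusted p = 0.0964). With all 10 kidneys its adjusted p ran from 0.0667, with libraries scaled to equal totals, to 0.128, without a variance trend, so none of these settings called it. On the 8 kidneys with recovered reads it was 0.0481 in DESeq2, 0.0678 in edgeR and 0.0658 in limma. Those 8 lack Rragc +/+ replicate 5 and Rragc S74N/+ replicate 3, the latter with the least Birc2 of its genotype. Without Rragc S74N/+ replicate 3 alone the adjusted p in limma was 0.0570, and without Rragc +/+ replicate 5 alone it was 0.103. The log2 difference was 0.33 in the kidneys of lower title numbers, whose genotypes overlapped, and 0.85 in the others, whose genotypes did not. The genes are paralogs, and how reads that map to both were handled in the counting was not examined here.

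The Birc3 to Birc2 ratio was taken within each library, from normalized counts plus 1. On the log2 scale it averaged -2.63 ± 0.41 in wild-type and -1.77 ± 0.58 in Rragc S74N/+ kidneys (SD, n = 5 each), so Birc2 had the higher count in all 10. The difference of 0.86, or 1.81-fold, had an exact two-sided permutation p of 0.0476, which became 0.190 after adjustment over the 4 ratios examined and so did not hold. At the low counts of Birc3 the added constant matters, and the difference was 0.90 with 0.5 added and 0.60 with 5 added. Rragc S74N/+ replicates 1, 2 and 5 lay above every Rragc +/+ kidney, and replicates 3 and 4 lay among them. The permutation test runs over 252 allocations and cannot give a p below 0.00794.

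**Figure D2:**
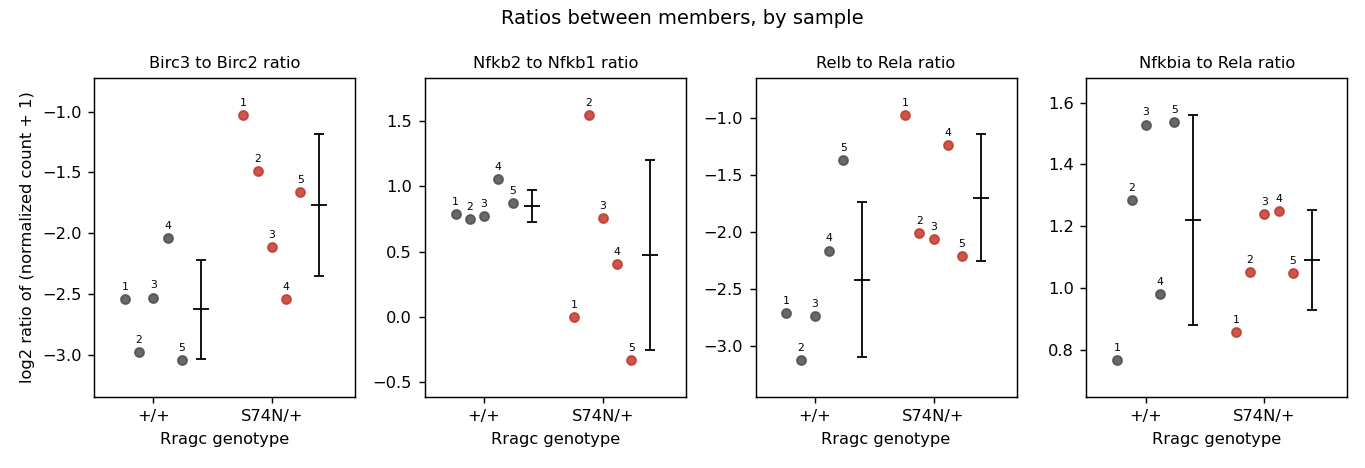
Log2 ratios of normalized counts plus 1 (vertical axes) for Birc3 to Birc2, Nfkb2 to Nfkb1, Relb to Rela and Nfkbia to Rela in each Rragc +/+ (grey) and Rragc S74N/+ (red) kidney, with replicate numbers and the mean ± SD at the right of each group. The groups overlap in all 4 panels, and 3 Rragc S74N/+ points lie above the wild-type range in the Birc3 to Birc2 panel.

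Among the subunit genes, Nfkb1 and Relb had the larger values in Rragc S74N/+ kidneys, while Rela and Nfkb2 gave log2 fold changes near 0. Nfkb1 encodes the precursor of a subunit that usually pairs with RelA. It was tightly grouped in Rragc +/+ replicates 1 to 5, at 43.6, 44.7, 45.1, 41.9 and 45.8 normalized counts, and spread out in Rragc S74N/+ replicates 1 to 5, at 84.9, 45.6, 54.0, 56.0 and 79.7. All but Rragc S74N/+ replicate 2 lay above the wild-type range, and that kidney was 45.6 against a wild-type maximum of 45.8. The SD was 1.51 in Rragc +/+ and 17.2 in Rragc S74N/+ kidneys, n = 5 each. The log2 fold change was 0.48 ± 0.19 (SE), 95% interval 0.07 to 0.90, which did not pass adjustment (limma, adjusted p = 0.136). Within the kidneys of lower title numbers the log2 difference was 0.41 and within the others 0.60, and the genotypes did not overlap within either set. In the lower set the gap was 45.6 in Rragc S74N/+ replicate 2 against 45.1 in Rragc +/+ replicate 3, with 47 reads in each kidney.

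Relb encodes the partner of the processed Nfkb2 product. Its values were 31.3, 17.7, 23.0, 37.6 and 37.8 normalized counts in Rragc +/+ replicates 1 to 5 and 64.3, 47.5, 37.0, 53.0 and 32.1 in Rragc S74N/+ replicates 1 to 5. Rragc S74N/+ replicates 1, 2 and 4 lay above the wild-type range and replicates 3 and 5 within it. Relb had a log2 fold change of 0.66 ± 0.26 (SE), 95% interval 0.11 to 1.21 (limma, adjusted p = 0.127). It differed between the sets of kidneys: the log2 difference was 1.02 in those of lower title numbers and 0.13 in the others, a contrast that was not tested.

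Nfkb2, whose product is the precursor cut in the non-canonical branch, stood at 76.1, 75.9, 77.8, 88.2 and 84.6 normalized counts in Rragc +/+ replicates 1 to 5. In Rragc S74N/+ replicates 1 to 5 it stood at 84.9, 135, 92.0, 74.3 and 63.2, so 2 kidneys lay above the wild-type range and 2 below it. For Nfkb2 the log2 fold change was 0.11 ± 0.19 (SE), 95% interval -0.28 to 0.50 (limma, adjusted p = 0.751). It rested on Rragc S74N/+ replicate 2, without which it was -0.05. In the kidneys of lower title numbers, which include that one, the log2 difference was 0.40 and the genotypes did not overlap, and in the others it was -0.33, a contrast that was not tested. Like Nfkb1, Nfkb2 spread more in the Rragc S74N/+ kidneys, with an SD of 27.4 against 5.56, n = 5 each, a difference in spread that was not tested. The Nfkb2 to Nfkb1 ratio averaged 0.85 ± 0.12 on the log2 scale in wild-type and 0.47 ± 0.72 in Rragc S74N/+ kidneys (SD, n = 5 each), and these differed by -0.37 (exact permutation p = 0.302, adjusted p = 0.402).

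Rela encodes the main activating subunit of the canonical branch. Its values were 211, 162, 159, 172 and 99.5 normalized counts in Rragc +/+ replicates 1 to 5 and 128, 195, 158, 126 and 153 in Rragc S74N/+ replicates 1 to 5. Every Rragc S74N/+ kidney lay within the wild-type range, which Rragc +/+ replicates 1 and 5 set at either end. On the log2 scale Rela differed by -0.06 ± 0.19 (SE), and its 95% interval from -0.46 to 0.33 holds changes in both directions (limma, adjusted p = 0.873). Its sign turned with the setting, to 0.02 when libraries were scaled to equal totals, and with the title number, at -0.16 in the lower and 0.08 in the higher set. The Relb to Rela ratio averaged -2.42 ± 0.68 on the log2 scale in wild-type and -1.70 ± 0.55 in Rragc S74N/+ kidneys (SD, n = 5 each), and the difference of 0.72 did not pass (exact permutation p = 0.111, adjusted p = 0.222).

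Neither of the IκB genes was called. Nfkbia encodes IκBα, the inhibitor that is degraded and then made anew by NF-κB itself, and it had the highest mean of the 10 genes in both groups. Its values were 360.2, 396, 462, 341 and 291 normalized counts in Rragc +/+ replicates 1 to 5 and 232, 405, 374, 301 and 317 in Rragc S74N/+ replicates 1 to 5. Only Rragc S74N/+ replicate 1 lay outside the wild-type range, below it. Nfkbia had a log2 fold change of -0.19 ± 0.16 (SE), 95% interval -0.53 to 0.14 (limma, adjusted p = 0.473). By title number the log2 difference was -0.30 in the lower and -0.03 in the higher set. Its promoter window, with both κB motif matches, is printed above. Set against the subunit it binds, the Nfkbia to Rela ratio averaged 1.22 ± 0.34 in wild-type and 1.09 ± 0.16 in Rragc S74N/+ kidneys on the log2 scale (SD, n = 5 each, difference -0.13, exact permutation p = 0.460, adjusted p = 0.460).

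Nfkbiz encodes IκBζ, an atypical nuclear IκB protein that helps switch on a subset of inflammatory genes. It stood at 16.8, 27.0, 29.8, 21.8 and 13.9 normalized counts in Rragc +/+ replicates 1 to 5 and at 66.2, 33.9, 35.0, 18.3 and 52.5 in Rragc S74N/+ replicates 1 to 5. All Rragc S74N/+ kidneys but replicate 4 lay above the wild-type range. The log2 fold change, 0.81 ± 0.32 (SE) with a 95% interval from 0.13 to 1.49, came after that of Birc3 as the largest of the 10, and did not pass adjustment (limma, adjusted p = 0.131). It was alike in both sets of kidneys, at 0.82 for lower and 0.80 for higher title numbers.

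Ikbkb encodes IKKβ, the kinase that phosphorylates IκBα. Its values were 223, 233, 240.0, 181 and 202 normalized counts in Rragc +/+ replicates 1 to 5 and 204, 298, 287, 219 and 266 in Rragc S74N/+ replicates 1 to 5. Rragc S74N/+ replicates 2, 3 and 5 lay above the wild-type range and the other 2 within it. Ikbkb had a log2 fold change of 0.23 ± 0.14 (SE), 95% interval -0.06 to 0.52 (limma, adjusted p = 0.307). By title number the log2 difference was 0.16 in the lower and 0.34 in the higher set.

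Tnfrsf1a encodes TNF receptor 1, the receptor at the top of this branch. It stood at 104, 107, 89.3, 87.3 and 89.5 normalized counts in Rragc +/+ replicates 1 to 5 and at 63.4, 109, 97.0, 79.4 and 78.7 in Rragc S74N/+ replicates 1 to 5. Rragc S74N/+ replicate 2 lay just above the wild-type range and replicates 1, 4 and 5 below it. Tnfrsf1a had a log2 fold change of -0.18 ± 0.16 (SE), 95% interval -0.53 to 0.17 (limma, adjusted p = 0.527). By title number the log2 difference was -0.19 in the lower and -0.16 in the higher set.

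**Figure D3:**
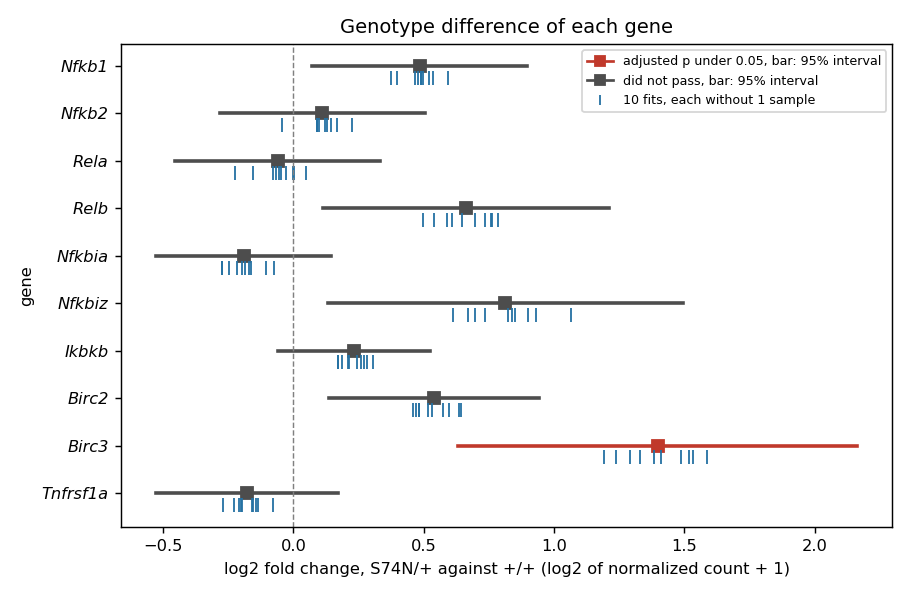
Log2 fold change of each gene (horizontal axis, Rragc S74N/+ against Rragc +/+, on log2 of the normalized count plus 1) with its 95% interval from limma, and blue ticks for the 10 fits that each left out 1 kidney. The intervals of Nfkb1, Relb, Nfkbiz, Birc2 and Birc3 lie above 0, Birc3 (red) being the only gene called after adjustment, and the ticks of Rela and Nfkb2 cross 0.

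The high values did not come from the same kidneys throughout. Rragc S74N/+ replicate 1 was the highest of its group in 4 genes (Nfkb1, Relb, Nfkbiz and Birc3) and the lowest in 3 (Nfkbia, Ikbkb and Tnfrsf1a). Rragc S74N/+ replicate 2 was the highest in 5 genes (Nfkb2, Rela, Nfkbia, Ikbkb and Tnfrsf1a) and the lowest in Nfkb1. The order of levels in Rragc +/+ kidneys was Nfkbia, Ikbkb, Rela, Tnfrsf1a, Nfkb2, Birc2, Nfkb1, Relb, Nfkbiz and Birc3 from the highest mean to the lowest. Neighbours in that order whose ranges did not overlap were Nfkbia and Ikbkb, Birc2 and Nfkb1, Nfkb1 and Relb, and Nfkbiz and Birc3. In Rragc S74N/+ kidneys Nfkb2 and Birc2 stood above Tnfrsf1a in the order of means, and only Ikbkb and Rela had ranges that did not overlap.

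By the root mean square difference of centred log2 values over the 10 kidneys, the tested genes whose pattern was nearest to that of Birc3 were Lox at 0.205, Dock10 at 0.254 and Gm42031 at 0.296. They were chosen on values that hold the genotype difference, so their fold changes follow from the choice and are given with no test. Lox encodes lysyl oxidase, which crosslinks collagen, and its log2 fold change was 1.24. Dock10, which encodes an activator of small GTPases, had a log2 fold change of 1.30 and the gene model Gm42031 one of 1.76.

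The rest of the pathway was read from 5 lists of other NF-κB proteins, kinases and adaptors, negative regulators and ubiquitin enzymes, receptors, and ligands. Of 67 genes listed, 52 were in the table and tested, 2 of them rose and none fell, a share of 3.85% against 6.03% over all genes tested. At an unadjusted p under 0.05, 9 stood higher and 3 lower, where 12.6% of all genes tested stood higher and 25.4% stood either way. Their median log2 fold change was 0.16. Chuk encodes IKKα, a kinase of the non-canonical branch that also pairs with the Ikbkb product in the canonical one. It rose from 170.5 ± 17.5 to 261.7 ± 52.8 normalized counts (SD, n = 5 each), by 0.59 ± 0.15 (SE) on the log2 scale (limma, adjusted p = 0.0329), and 4 of 5 Rragc S74N/+ kidneys lay above the wild-type range. Tnip1 encodes a partner of the deubiquitinase A20 that restrains the pathway. It rose from 122.8 ± 15.2 to 183.4 ± 39.4 normalized counts (SD, n = 5 each), by 0.56 ± 0.15 (SE) on the log2 scale (limma, adjusted p = 0.0403), and all 5 Rragc S74N/+ kidneys lay above the wild-type range. Leaving out 1 kidney at a time, Chuk stayed called only without Rragc +/+ replicate 3 or Rragc S74N/+ replicates 1 or 2, and its adjusted p was otherwise 0.0515 to 0.0889. Tnip1 stayed called only without Rragc +/+ replicate 5 or Rragc S74N/+ replicate 3, and its adjusted p was otherwise 0.0534 to 0.106.

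By list, 1 of 22 kinases and adaptors tested (Chuk) and 1 of 14 negative regulators (Tnip1) rose, with median log2 fold changes of 0.18 and 0.07. None of 8 receptors and none of 4 ligands was called by limma, with medians of 0.10 and 0.14, or by DESeq2 on 8 kidneys, and at an unadjusted p under 0.05 in limma 1 receptor stood higher, 1 receptor lower and 1 ligand higher. None of the 4 other NF-κB proteins was called, and all 4 are named here although the rule for named genes took called genes only. The log2 fold change was -0.65 for Nfkbib, which encodes IκBβ and was the only one of them at an unadjusted p under 0.05 (limma, adjusted p = 0.0806), 0.51 for Rel, 0.45 for Nfkbie and 0.16 for Bcl3. Tnf itself, the ligand of TNF receptor 1, and Tnfaip3, which encodes A20, were listed but were not in the deposited table, so they were not tested.

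Of 33 textbook NF-κB target genes listed, 25 were in the table and tested. Of these 25, 5 rose (20%) and none fell, against 3.45% of all genes tested called higher and 6.03% called in either direction. The list was drawn up with earlier results of these data known, so this share is not independent evidence. Whether this share differs from that of the pathway lists was not tested. C3, the central complement component, rose from 89.2 ± 36.4 to 413 ± 227 normalized counts (SD, n = 5 each), by 2.12 ± 0.33 (SE) on the log2 scale (limma, adjusted p = 0.00174). Ccl19, a chemokine for T cells and dendritic cells, rose from 16.4 ± 8.28 to 64.8 ± 14.5 normalized counts (SD, n = 5 each), by 2.04 ± 0.31 (SE) on the log2 scale (limma, adjusted p = 0.00166). In both genes all 5 Rragc S74N/+ kidneys lay above the wild-type range, and both stayed called in all 10 fits that left out 1 kidney. Lcn2, a secreted marker of tubular injury, rose by 2.15 ± 0.60 (SE) on the log2 scale (limma, adjusted p = 0.0446), with an SD of 123 around a mean of 89.6 in Rragc S74N/+ kidneys (n = 5). Ccl5, a chemokine made by T cells among others, and Vcam1, an adhesion molecule for leukocytes, had log2 fold changes of 1.19 and 1.12 (limma, adjusted p = 0.0322 and 0.0201), and Vcam1 is in the same panel as Birc3, chosen on these samples. Without 1 kidney, Vcam1 lost its call without Rragc +/+ replicates 2 or 4 or Rragc S74N/+ replicate 5 (adjusted p of 0.0560, 0.0511 and 0.0586). Lcn2 lost it in 6 of 10 fits, without Rragc +/+ replicates 1, 2, 4 or 5 or Rragc S74N/+ replicates 2 or 5 (adjusted p up to 0.105). Ccl5 lost it in 7 of 10 fits, without those 6 kidneys or Rragc S74N/+ replicate 3 (adjusted p up to 0.0861). A DESeq2 fit of 8 kidneys called 6 target genes higher and 1 lower. The other 20 target genes were not called by limma, and among them the log2 fold change ran from -0.79 for Sod2 to 1.36 for Cxcl10, both picked as the ends of that range after their values were seen. At an unadjusted p under 0.05 in limma, 8 of the 25 stood higher and 2 lower, where 12.6% of all genes tested stood higher and 25.4% either way. The median over the 25 was 0.38, close to the 0.36 of the 10 genes described here.

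**Figure D4:**
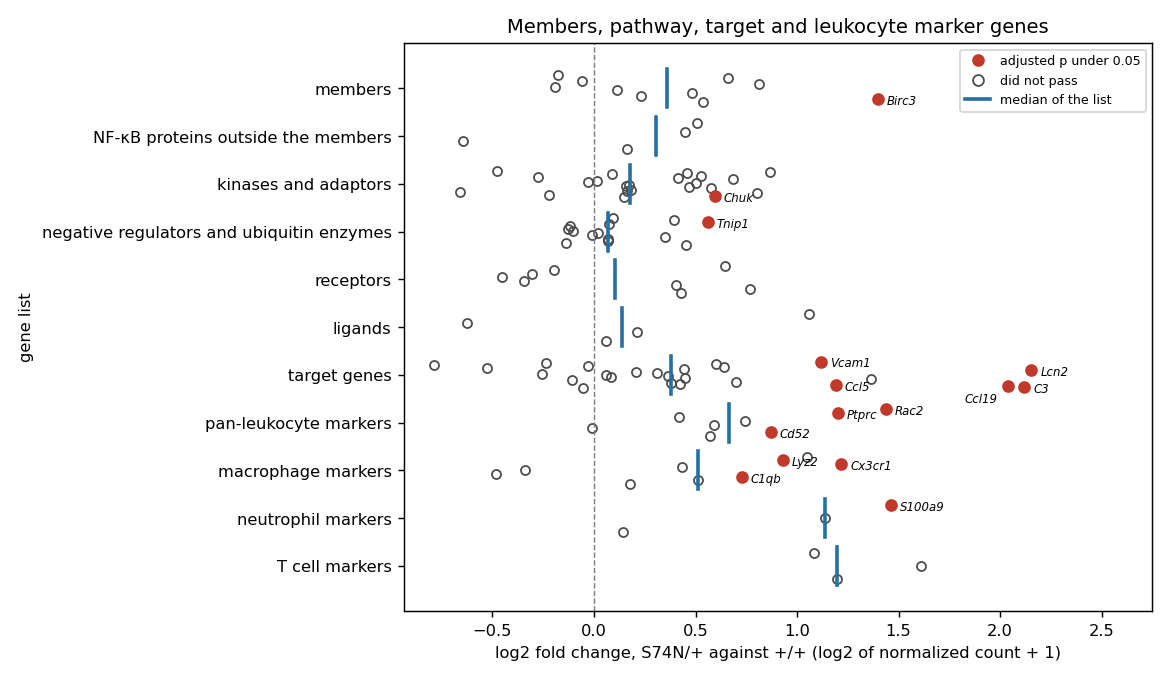
Log2 fold change (horizontal axis, Rragc S74N/+ against Rragc +/+) of every tested gene of the 10 genes described here, of the 5 pathway lists, of the target genes and of the leukocyte marker lists, with a point per gene, filled red where the adjusted p was under 0.05, with a blue line at the median of each list. The pathway lists have medians between 0.07 and 0.31, the target genes 0.38 and the pan-leukocyte markers 0.67.

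Recovered reads ran from 4488493 to 5797251 in the 8 kidneys where they were obtained. The S74N change lies outside the 3′ end that was read, so the level of Rragc does not check the genotype. It stood at 146 ± 42.7 normalized counts in Rragc +/+ and 124 ± 26.4 in Rragc S74N/+ kidneys (SD, n = 5 each, limma, adjusted p = 0.508), and the genotypes here are those of the labels.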

How the data were processed

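Whole kidney RNA of 5 Rragc S74N/+ and 5 Rragc +/+ mice was sequenced from its 3′ ends. The authors checked reads with FastQC 0.11.7, aligned them to GRCm39 with TopHat2 2.0.10, Bowtie 1.0.0 and SAMtools 0.1.19, and counted sense reads per gene with HTSeq 0.6.1 on a GENCODE annotation. The deposited values are a signal of normalized counts, that is, read counts that the authors divided by a size factor for each sample. Genes with few reads had already been left out, the lowest mean of any gene being 4.37.

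Groups were taken from the genotype label. Nothing in the labels says more of how the animals were raised or prepared. The p-values set the difference between genotypes against the spread between mice of the same genotype. Genes with at least 5 normalized counts in at least 5 samples were kept, which removed 63 and left 13236. Limma 3.58.1 (R 4.3.3) was run on log2 of the normalized count plus 1, with a variance trend and no term but genotype. P-values were two-sided, with Benjamini-Hochberg adjustment across the 13236 genes and a threshold of 0.05. The log2(value + 1) scale understates changes of low genes such as Birc3. Ratios between genes were compared by exact two-sided permutation tests over samples, adjusted over the 4 ratios. In 8 samples 100% of values were whole reads within 0.02 reads, and edgeR 4.0.16 and DESeq2 1.42.0 were run on those reads. In Rragc S74N/+ replicate 3 and Rragc +/+ replicate 5 every value was also a whole multiple of a step. That step was so near 1 that the check used here did not accept whole reads, so neither sample entered a count model.

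The text names the 10 genes, Rragc, the called genes of each list (at most 6 a list) and the 3 genes nearest to Birc3 in pattern. The genes and lists were chosen with earlier results of these data known. The scripts were tested on simulated data. Alternatives were pseudocounts of 0.5 and 5, other filters and scalings, limma without a trend or with robust variances, a block for the title number, the count models, and leaving out each sample. Limma on the 8 samples was added after seeing the data. Promoter windows came from RefSeq on GRCm38.p6, not the build of the counts, and were used for sequence alone.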

Additional observations from a re-analysis of the deposited data

Results flagged for a closer look

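The value of each of the 10 genes and 4 ratios was searched in both groups for a kidney far from its 4 companions by Dixon's criterion. None was found in the 28 groups of 5 searched, where chance alone would give about 1.4.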

How the results depend on the processing

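No paired analysis was made, because the groups are different mice and the labels name no pairs among them. A block for the title number left Birc3 as the only one of the 10 genes called (adjusted p = 0.0390). Birc3 was called in all 11 settings that kept the gene and did not leave out single kidneys. With all 10 kidneys its limma adjusted p ran from 0.0268, with equal totals, to 0.0462, without a trend. On the 8 kidneys with recovered reads it was 0.00646 in DESeq2, 0.0303 in edgeR and 0.0375 in limma. Those 8 lack Rragc +/+ replicate 5 and Rragc S74N/+ replicate 3, the latter with the least Birc3 of its genotype. Without that Rragc S74N/+ kidney alone, the adjusted p in limma was 0.0223. With a minimum mean of 50 normalized counts, 0 of the 10 genes were called, since Birc3, Relb and Nfkbiz then fell below the filter, and target genes called went from 5 to 2. Without a trend, all genes called went from 798 to 391, pathway genes from 2 to 0 and target genes from 5 to 2. DESeq2 on 8 kidneys called 1402 genes, 2 of the 10 genes (Birc2, adjusted p = 0.0481, and Birc3) and 5 pathway genes. Scaling to equal totals or to equal 75th percentiles gave 4 pathway genes each, and limma on the 8 kidneys, added after seeing the data, gave 3 target genes. With equal totals the log2 fold change over all genes had a median of 0.06 in place of -0.01, and 718 genes were called higher and 225 lower, against 457 and 341.

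Leaving out 1 kidney at a time gave 311 to 902 genes called, 0 to 1 of the 10 genes (0 in 7 of 10 fits), 0 to 4 pathway genes and 2 to 7 target genes. The log2 difference of the Birc3 to Birc2 ratio then ran from 0.67 to 1.05, of Nfkb2 to Nfkb1 from -0.64 to -0.17, of Relb to Rela from 0.54 to 0.98 and of Nfkbia to Rela from -0.24 to -0.05. Over these 10 fits Rela ran from -0.22 to 0.047 and Nfkb2 from -0.046 to 0.22 in log2 fold change. The Rela log2 fold change changed sign to 0.018 with equal totals, 0.047 without Rragc +/+ replicate 1 and 0.00059 without Rragc S74N/+ replicate 4, and that of Nfkb2 to -0.046 without Rragc S74N/+ replicate 2. None of these passed a threshold. The causes were not tested. Depth limits Birc3 most, at 5 to 47 reads a kidney.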

Other observations

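Markers of other kidney cells also differed between the genotypes, and their part in the values of the NF-κB genes was not tested. Of 8 distal nephron and collecting duct markers tested, 4 fell, namely Pvalb (log2 fold change -4.93), Slc12a3, the thiazide-sensitive cotransporter (-1.94), Umod, which encodes uromodulin (-1.55), and Calb1 (-0.74), and the summed level was 14304 to 17037 normalized counts in Rragc +/+ and 6627 to 11272 in Rragc S74N/+ kidneys. The other 4 were not called (limma, adjusted p from 0.692 to 0.917), with log2 fold changes of 0.31 for Aqp2, 0.17 for Hsd11b2, 0.04 for Slc12a1 and -0.03 for Atp6v1b1. Of 7 proximal tubule markers only Slc5a2, the sodium-glucose cotransporter of the early segment, fell (log2 fold change -1.05), and the summed levels overlapped, at 29108 to 36290 against 27368 to 34796.

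Of 7 fibroblast markers 3 rose, Col1a1 (log2 fold change 1.19), Pdgfra (0.87) and Col1a2 (0.53), with sums of 810 to 1415 normalized counts in Rragc +/+ and 1314 to 2202 in Rragc S74N/+ kidneys. Synpo, 1 of 5 podocyte markers, rose by 0.45 on the log2 scale. Leaving out 1 kidney at a time, the calls of Col1a1, Slc5a2 and the 4 distal nephron genes held in all 10 fits. That of Pdgfra was lost without Rragc +/+ replicates 1, 2 or 4 (adjusted p up to 0.0563) and that of Col1a2 without Rragc +/+ replicates 1, 2, 4 or 5 or Rragc S74N/+ replicates 2 or 5 (adjusted p up to 0.123). Synpo stayed called only without Rragc +/+ replicate 5 or Rragc S74N/+ replicate 3 (adjusted p otherwise up to 0.123). None of 7 endothelial markers and none of the 4 B and plasma cell markers tested was called at an adjusted p under 0.05 in limma. At an unadjusted p under 0.05, 1 endothelial marker was lower and 2 B and plasma cell markers were higher. The endothelial sums were 1624 to 1923 against 1709 to 2240, and the B and plasma cell sums 127 to 1060 against 332 to 1271.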
